A study of Mus musculus with 8 samples.

Results

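The genes described here encode aminoacyl-tRNA synthetases, the enzymes that join each amino acid to its transfer RNA. They were taken by symbol from the deposited gene counts: symbols of the form Aars, Aars1 or Aars2 for any amino acid letter, together with Eprs, Farsa, Farsb and Tarsl2. This gave 38 of 27179 genes. Of these, 17 with a symbol ending in 2 were taken as mitochondrial and 21 as cytosolic or shared between the compartments. Tarsl2 (also called Tars3) ends in 2 but encodes a second cytosolic threonyl-tRNA synthetase and was counted as cytosolic. The rule used names only and no measured value.

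Protein synthesis runs in the cytosol and, for a few respiratory chain subunits, inside mitochondria, and each site needs its own charged transfer RNAs. All synthetases are encoded in the nucleus. Most amino acids have a separate gene for the cytosolic and for the mitochondrial enzyme, while Kars (lysine) and Gars (glycine) supply both sites from one gene. Mitochondria have no glutaminyl-tRNA synthetase of their own: Ears2 first attaches glutamate, and an amidotransferase converts it to glutamine. Eprs joins the glutamate and proline activities in one cytosolic protein, and Farsa and Farsb are the subunits of the cytosolic phenylalanine enzyme. In the nervous system, inherited defects of these genes are known from leukodystrophies, epilepsies and neuropathies.

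RNA of the embryonic cerebral cortex of 8 mouse embryos was sequenced, 1 library per embryo. The 4 Taf8 Intact embryos are labelled Taf8 +/+, and the 4 Taf8 Deleted embryos Taf8 -/lox, that is with a null and a lox allele. Taf8 is a subunit of TFIID, the factor that places RNA polymerase II at core promoters, and the comparison asks which transcripts differ when it is lost. Which recombinase was used, in which cells it acts and the embryonic stage were not stated in the labels used here. Intact animal numbers were 408.4, 408.5, 408.6 and 409.2, and Deleted ones 456.1, 472.1, 477.1 and 486.1. No number before the point occurs in both groups, so whatever it marks cannot be told apart from the genotype. Intact embryos 408.4, 408.5 and 408.6 share that number, while each Deleted embryo has its own. Whether embryos that share it are more alike was not tested. Library totals were 39590959 to 44788200 counts, and a synthetase gene had 186 to 88121 counts in a library. A count of 0 would allow 0.067 to 0.0758 CPM (counts scaled to a common library size), so depth did not limit the detection of any member. Such limits cover counting error only.

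Taf8 had 1222 to 1491 counts in the Intact and 14 to 30 in the Deleted libraries, so every library matched its label. The 8 cortical markers, among them Emx1, Pax6, Eomes and Tbr1, were present in all libraries, with a summed level of 2608 to 2716 CPM in the Intact and 1819 to 1977 CPM in the Deleted ones. Of 6 meningeal markers 4 rose, with sums of 15.9 to 36.9 and 18.7 to 146 CPM. All 5 endothelial markers rose, with sums of 133 to 142 and 153 to 195 CPM. By the same test, described below, 30.6% of all genes tested rose. The groups overlapped in the called markers Col1a2, Col3a1, Lum and Pecam1. Sums of 6 microglial markers were 35.3 to 39.1 and 34.9 to 42.6 CPM, of 4 choroid plexus markers 3.53 to 281 and 1.65 to 888 CPM, and of 5 red blood cell markers 84.2 to 101 and 85.9 to 151 CPM. No defining marker was at 0 in all libraries. The part of these tissue differences in the synthetase values was not tested, and in bulk tissue fewer cells of a type and less RNA per cell cannot be told apart.

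Cytosolic synthetase mRNAs differed little between the groups, and mitochondrial ones differed more, in both directions. Of the 21 cytosolic or shared genes 6 rose, 6 fell and 9 did not pass the test (edgeR's quasi-likelihood test on counts, Benjamini-Hochberg adjusted p under 0.05 over 16074 genes). Of the 17 mitochondrial genes 8 rose, 5 fell and 4 did not pass. Among all genes tested 63.5% passed, 30.6% upward and 32.9% downward, so the share of synthetases that passed, 25 of 38, was near the background. The size of the changes differed between the sets: the median absolute log2 fold change was 0.12 for cytosolic and 0.37 for mitochondrial genes, beside 0.27 for all genes tested. The signed medians were 0.002 and 0.08. A change of at least 1.5-fold was called in 3 mitochondrial genes upward and 3 downward, where 11% and 9.54% of all genes did so, and the largest cytosolic change was 1.31-fold. All 38 genes passed the filter on low counts, and the difference between the sets was not tested.

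**Figure D1:**
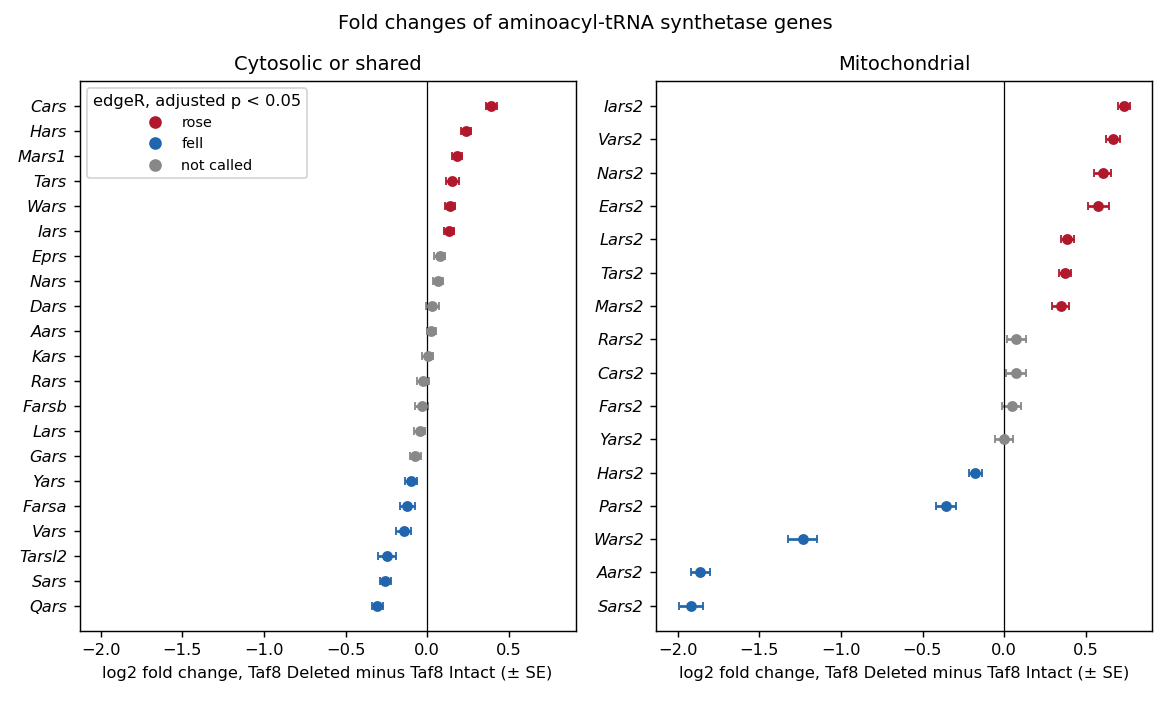
Log2 fold change (Taf8 Deleted minus Taf8 Intact, x axis) of the synthetase genes with its standard error, 4 libraries a group; colours give the call by edgeR's quasi-likelihood test. Cytosolic genes lie between -0.31 and 0.39, mitochondrial genes between -1.92 and 0.73.

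A group of 3 mitochondrial genes stood far below the rest, those for serine, alanine and tryptophan. Sars2, the mitochondrial seryl-tRNA synthetase (chromosome 7, 28741957 to 28753879 in GRCm38), was at 20.99, 18.1, 18.3 and 19.6 CPM in the Intact libraries and at 5.21, 5.24, 5.24 and 4.64 CPM in the Deleted ones. The Deleted libraries all lay far below the lowest Intact one, at 26.4% of the Intact level (log2 fold change -1.92 ± 0.07 SE, adjusted p = 1.62e-09). Aars2, for alanine (chromosome 17, 45503515 to 45520843), was at 29.4, 28.7, 26.8 and 27.9 CPM in the Intact and 7.80, 7.65, 8.38 and 7.23 CPM in the Deleted libraries. Again no Deleted library came near an Intact one, and the level was 27.5% of that in Intact cortex (-1.86 ± 0.06 SE, adjusted p = 5.37e-10). Wars2, for tryptophan (chromosome 3, 99140107 to 99221230), was at 14.1, 14.9, 13.99 and 14.6 CPM and at 7.19, 5.33, 5.60 and 6.36 CPM. It fell to 42.6% (-1.23 ± 0.09 SE, adjusted p = 1.95e-07), with more spread among the Deleted libraries than in the other two.

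Pars2 and Hars2 fell by less. Pars2, the mitochondrial prolyl-tRNA synthetase, went from 12.9 ± 0.594 to 10.1 ± 0.395 CPM (SD, n = 4 each), or -0.36 ± 0.06 on the log2 scale (SE). Hars2, for histidine, went from 47.7 ± 1.40 to 42.2 ± 1.71 CPM, or -0.18 ± 0.04. The groups did not overlap in any of the 5 mitochondrial genes that fell. Among all 16074 genes tested, called or not, 4842 (30.1%) had no overlap with the Deleted libraries lower, and 5290 were called lower. A lack of overlap thus adds little to a call.

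The mitochondrial genes for isoleucine, valine and asparagine rose most. Iars2 (chromosome 1, 185286642 to 185329419) was at 66.8, 66.3, 63.6 and 63.9 CPM in the Intact and 106, 115, 109 and 103 CPM in the Deleted libraries. It rose 1.66-fold, with every Deleted library above every Intact one (0.73 ± 0.04 SE on the log2 scale, adjusted p = 1.34e-08). Vars2 (chromosome 17, 35655634 to 35667639) was at 47.3, 45.6, 44.7 and 46.3 CPM and at 75.6, 71.9, 76.4 and 67.9 CPM, a 1.59-fold rise (0.67 ± 0.04 SE, adjusted p = 6.83e-08). The lowest Deleted library was again well above the highest Intact one. Nars2 (chromosome 7, 96950839 to 97064758) was at 14.8, 15.1, 14.4 and 15.7 CPM and at 21.2, 23.2, 23.1 and 23.7 CPM, a 1.52-fold rise (0.60 ± 0.05 SE, adjusted p = 1.03e-06). These 3 genes have annotated transcripts on the opposite strand: 2034 bases of the longest Iars2 transcript are shared with Rab3gap2, 130 bases of Vars2 with Gm20483 and 284 bases of Nars2 with C230038L03Rik. Without strand their reads cannot be told apart there. Rab3gap2 itself rose by 0.18 ± 0.04 (SE) on the log2 scale.

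Ears2, Tars2 and Mars2 rose by smaller amounts. Ears2, which loads glutamate and starts the glutamine route, rose from 15.0 ± 0.951 to 22.4 ± 1.41 CPM (SD, n = 4 each), or 1.49-fold. Tars2, for threonine, rose from 42.8 ± 1.49 to 55.5 ± 1.805 CPM, and Mars2, for methionine, from 13.8 ± 0.538 to 17.6 ± 0.254 CPM. The groups did not overlap in any of the 8 mitochondrial genes that rose. Among all genes tested, called or not, 4437 (27.6%) had no overlap with the Deleted libraries higher, and 4919 were called higher. Rars2, Cars2, Fars2 and Yars2, for arginine, cysteine, phenylalanine and tyrosine, did not pass, with log2 fold changes of 0.08 ± 0.06, 0.07 ± 0.06, 0.05 ± 0.06 and -0.002 ± 0.056 (SE).

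Lars2, the mitochondrial leucyl-tRNA synthetase, was listed at a level unlike any other member. It was at 1428, 1600, 1444 and 1434 CPM in the Intact and 1900, 1901, 1991 and 1936 CPM in the Deleted libraries. It rose 1.31-fold (0.39 ± 0.04 SE on the log2 scale, adjusted p = 3.45e-06), with no overlap between the groups. Lars2 held 77.1% ± 0.932 of all counts of mitochondrial synthetases in Intact and 79.4% ± 0.507 in Deleted cortex (SD, n = 4 each). Bases 3278 to 3349 of its 3894-base transcript match the antisense gene Gm15564 of another chromosome with 98.6% identity. Which part of Lars2 its reads came from was not analysed here, so sums over the mitochondrial genes are given without it. That sum came to 439 ± 8.97 CPM in the Intact and 500.2 ± 6.55 CPM in the Deleted libraries, while the 21 cytosolic genes summed to 2904 ± 34.4 and 2909 ± 47.1 CPM.

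**Figure D2:**
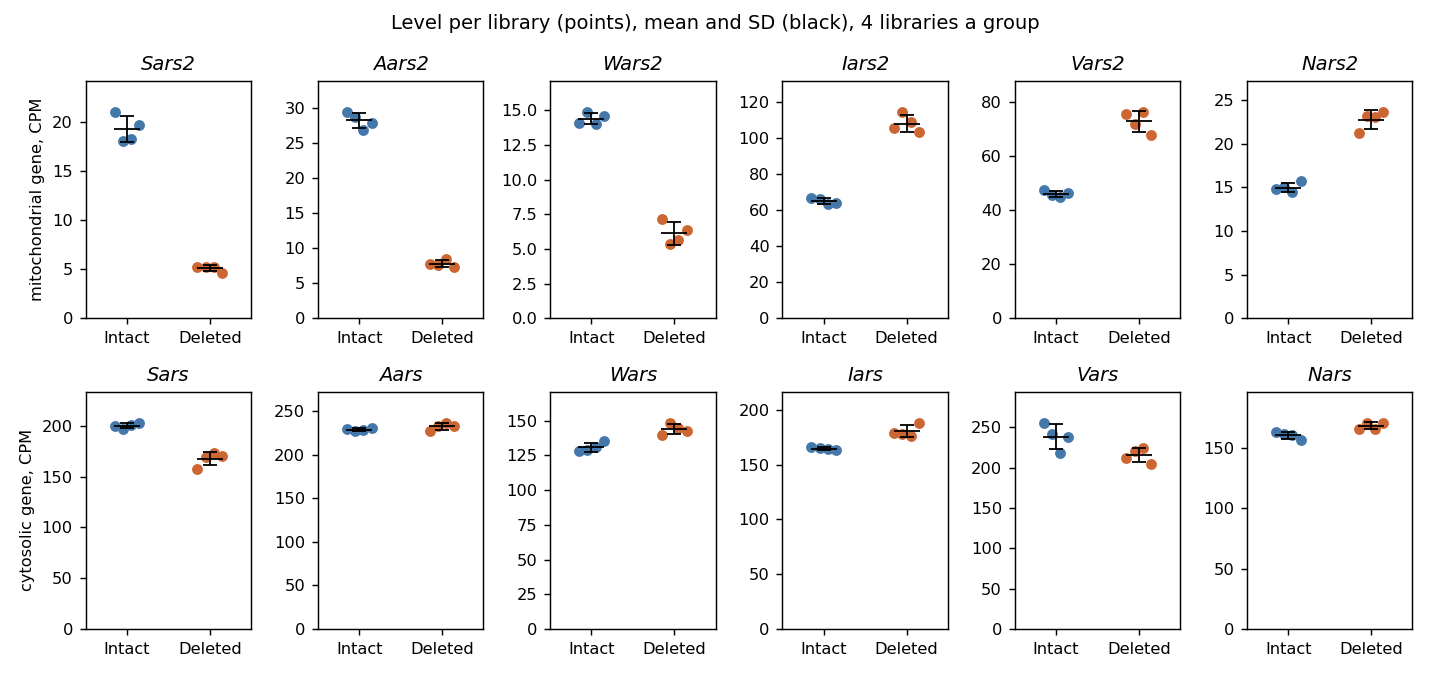
Level in CPM (y axis, from 0) of 6 mitochondrial genes (top) and the cytosolic genes of the same amino acids (bottom) in each of the 8 libraries, with mean and SD. Top points of the groups are far apart (Sars2 18.1 to 20.99 against 4.64 to 5.24 CPM), bottom points less so: Aars and Vars overlap, and Sars lies at 197 to 203 against 158 to 173 CPM.

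Promoter windows of the mitochondrial genes that fell or rose most are shown, since TFIID acts at this part of a gene. Each runs from 250 bases before to 50 after an annotated start (RefSeq, GRCm38.p6), written 5′ to 3′ on the gene's strand. A window was found for 28 of the 38 members and, among others, not for Hars, Hars2, Vars and Cars. Capitals mark matches on either strand to the letters searched: AAGATGGCG (YY1), CCGGAAG (ETS factors), the palindromic NRF1 motif, CCAAT and GGGCGG (GC box). No matches overlapped in the windows printed. The Aars2 and Wars2 windows surround one of several annotated starts, inside the RefSeq gene span. The windows lie at chr7:28741718-28742017 (+), chr17:45506582-45506881 (+), chr3:99140840-99141139 (+), chr1:185329352-185329651 (-) and chr17:35667543-35667842 (-).
Sars2: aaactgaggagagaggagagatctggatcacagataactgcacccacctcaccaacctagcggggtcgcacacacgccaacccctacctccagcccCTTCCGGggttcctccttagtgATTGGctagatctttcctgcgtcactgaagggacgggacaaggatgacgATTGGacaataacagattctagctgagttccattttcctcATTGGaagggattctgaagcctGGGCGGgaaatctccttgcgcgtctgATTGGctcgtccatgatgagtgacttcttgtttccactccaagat
Aars2: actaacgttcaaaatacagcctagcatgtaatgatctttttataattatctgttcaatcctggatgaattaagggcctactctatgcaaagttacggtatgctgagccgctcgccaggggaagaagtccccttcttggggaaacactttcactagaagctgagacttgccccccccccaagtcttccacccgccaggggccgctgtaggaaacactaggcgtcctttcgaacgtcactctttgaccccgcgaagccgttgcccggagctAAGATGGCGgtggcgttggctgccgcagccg
Wars2: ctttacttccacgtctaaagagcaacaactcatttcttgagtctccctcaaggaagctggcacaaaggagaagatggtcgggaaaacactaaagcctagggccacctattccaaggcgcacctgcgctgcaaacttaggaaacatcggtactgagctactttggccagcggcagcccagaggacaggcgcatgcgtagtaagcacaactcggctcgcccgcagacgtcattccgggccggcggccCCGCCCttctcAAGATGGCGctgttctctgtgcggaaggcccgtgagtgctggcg
Iars2: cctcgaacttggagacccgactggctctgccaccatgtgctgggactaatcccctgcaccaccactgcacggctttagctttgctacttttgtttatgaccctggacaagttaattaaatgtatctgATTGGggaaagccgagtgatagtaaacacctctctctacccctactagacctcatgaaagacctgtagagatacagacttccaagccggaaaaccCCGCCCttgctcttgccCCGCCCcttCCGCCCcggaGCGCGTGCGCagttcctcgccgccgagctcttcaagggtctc
Vars2: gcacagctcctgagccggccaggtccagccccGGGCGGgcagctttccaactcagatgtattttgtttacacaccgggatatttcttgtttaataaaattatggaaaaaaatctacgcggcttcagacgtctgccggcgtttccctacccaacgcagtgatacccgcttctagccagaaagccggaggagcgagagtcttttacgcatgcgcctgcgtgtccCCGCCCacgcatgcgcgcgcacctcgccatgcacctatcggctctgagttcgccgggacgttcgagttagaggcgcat
The first 3 belong to the genes that fell most and the last 2 to the genes that rose most. Aars2 and Wars2 hold the YY1 letters just after the annotated start, as did Yars2, which did not pass the test, and 1 cytosolic gene, Farsa. These letters were in 1.49% of 27025 promoters. Sars2 holds ETS letters, as did 4 of 14 mitochondrial and 5 of 14 cytosolic windows (9.12% of all promoters), and Iars2 NRF1 letters, as did 2 and 3 windows (4.78%). CCAAT was in 6 mitochondrial and 7 cytosolic windows (37.9%) and the GC box in 11 and 9 (35.9%). None of the 28 members with a window had TATAAA starting at positions -40 to -21 on its own strand, where 2.22% of promoters did. A match is a description of the letters and shows no binding.

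The cytosolic changes were small against a narrow spread between embryos. Cars, the cysteinyl-tRNA synthetase (chromosome 7, 143557230 to 143600090), was at 59.6, 57.1, 60.2 and 57.4 CPM in the Intact and 75.9, 74.6, 79.3 and 77.3 CPM in the Deleted libraries. It rose 1.31-fold (0.39 ± 0.03 SE on the log2 scale, adjusted p = 8.37e-07), the largest change of a cytosolic member. Hars, for histidine, was at 102, 103, 104 and 101 CPM and at 119, 119, 124 and 121 CPM. Mars1, for methionine, was at 116, 120.1, 117 and 122 CPM and at 134, 133, 136 and 136 CPM. Both rose without overlap, by 0.23 ± 0.03 and 0.18 ± 0.03 (SE). Tars, Wars and Iars, for threonine, tryptophan and isoleucine, rose by 0.15 ± 0.04, 0.14 ± 0.03 and 0.13 ± 0.03. Wars was at 128, 129, 131 and 135 CPM and at 140.0, 149, 145 and 142 CPM.

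Qars, Sars and Tarsl2 fell most among the cytosolic genes. Qars, the glutaminyl-tRNA synthetase, was at 117, 123, 117 and 124 CPM in the Intact and 93.9, 97.7, 99.9 and 97.7 CPM in the Deleted libraries (-0.31 ± 0.03 SE, adjusted p = 8.32e-06). Sars, for serine, was at 200.1, 197, 201 and 203 CPM and at 158, 169, 173 and 170.4 CPM (-0.26 ± 0.03 SE). Tarsl2, the second cytosolic threonine enzyme, was at 28.9, 27.8, 26.3 and 29.7 CPM and at 23.7, 25.7, 22.3 and 23.3 CPM (-0.25 ± 0.06 SE). In all 3 genes every Deleted library was below every Intact one. Vars (valine), Farsa and Yars (tyrosine) also fell, by 0.15 ± 0.05, 0.12 ± 0.05 and 0.10 ± 0.04 on the log2 scale, but the groups overlapped in Vars and Farsa and these calls depended on the setting. With library totals only, or with upper-quartile factors, 9 cytosolic genes were higher and 3 lower in place of 6 and 6. The 3 left were Qars, Sars and Tarsl2. Without Intact replicate 2, Deleted replicate 1 or Deleted replicate 4 the cytosolic genes called lower were also 3.

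The shared genes did not pass the test. Kars was at 173, 181, 167 and 175 CPM in the Intact and 173, 179.9, 173 and 171 CPM in the Deleted libraries, a log2 fold change of 0.002 ± 0.034 (SE). Gars was at 209, 222, 222 and 218 CPM and at 201, 211, 204 and 213 CPM, or -0.07 ± 0.03 (adjusted p = 0.0773). In both genes the groups overlapped. Aars (alanine) was at 229, 227, 228 and 231 CPM and at 228, 233, 237 and 233 CPM, or 0.03 ± 0.03. Eprs, Nars, Dars, Rars, Farsb and Lars had log2 fold changes of 0.08, 0.07, 0.03, -0.02, -0.03 and -0.05, with SE of 0.03 to 0.04. Eprs and Nars were close to the threshold (adjusted p = 0.0538 and 0.0695) and passed it upward under some alternatives.

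Set against the cytosolic gene of the same amino acid within each library, most mitochondrial genes shifted. The ratio of both counts does not depend on how libraries are scaled. Ears2 and Pars2 were set against Eprs, and Fars2 against Farsa, the subunit that holds the active site. Of 17 pairs, 8 had a higher ratio in every Deleted than in every Intact library, 6 a lower one, and 3 (Yars2, Rars2 and Fars2) overlapped. Of single genes tested, 57.7% had no overlap between the groups, and no test was made over the pairs. The log2 ratio of Aars2 to Aars was -2.96, -2.98, -3.09 and -3.05 in the Intact and -4.87, -4.93, -4.82 and -5.01 in the Deleted libraries. That of Sars2 to Sars moved by -1.66 and that of Wars2 to Wars by -1.38. The ratio of Vars2 to Vars moved the other way, from -2.43, -2.40, -2.29 and -2.36 to -1.49, -1.62, -1.56 and -1.59. Iars2, Nars2, Ears2 and Lars2 gained 0.60, 0.54, 0.50 and 0.44 on their partners, and Tars2 and Mars2 0.22 and 0.17. Pars2, Hars2 and Cars2 lost 0.43, 0.41 and 0.32. In that last pair Cars rose and Cars2 did not pass the test. In 8 of the 17 pairs the fold changes had opposite signs, but both genes passed the test in only 3 of them, those of Hars2, Wars2 and Vars2.

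**Figure D3:**
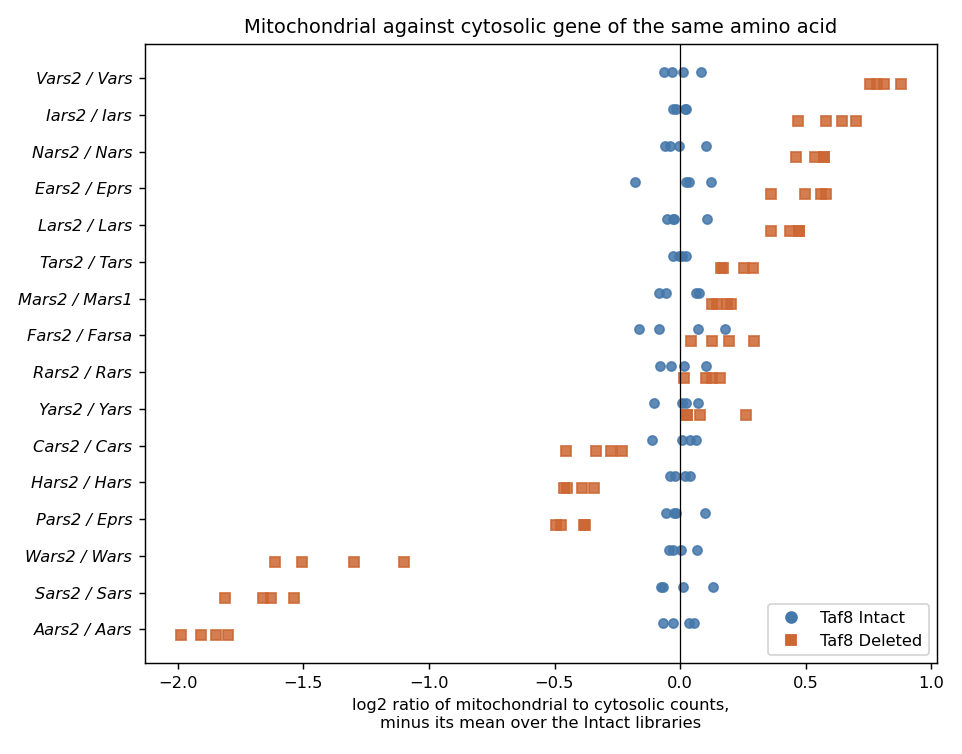
Log2 ratio of the mitochondrial to the cytosolic counts of the same amino acid in each library, with the Intact mean set to 0 (x axis); circles are Intact and squares Deleted libraries. Squares lie clear of the circles in the pairs shown other than Yars2, Rars2 and Fars2, from a mean shift of -1.89 (Aars2) to 0.81 (Vars2).

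Per length, mitochondrial synthetase mRNAs were rarer than cytosolic ones. Levels are given in TPM, counts divided by the deposited gene length and scaled to a common sum. The median over the mitochondrial genes of an Intact library was 21.7% ± 1.13 (SD, n = 4) of the median over the cytosolic genes. Gars (257 ± 7.24 TPM) and Kars (225 ± 6.80 TPM), which serve both sites, led the cytosolic genes in Intact cortex. Nars (170 ± 3.03 TPM) and Eprs (166 ± 4.71 TPM) came next and lay within 1 SD of each other. Cars (51.1 ± 1.44 TPM) and Tarsl2 (24.8 ± 1.26 TPM) were last. Of the mitochondrial genes other than Lars2, Iars2 was highest (51.8 ± 1.20 TPM), followed by Rars2 (45.8 ± 2.69 TPM) and Hars2 (43.9 ± 1.28 TPM), which lay within 1 SD of each other. Wars2 was lowest (9.22 ± 0.247 TPM). In Deleted cortex Sars2, Aars2 and Wars2 were the lowest 3 members, at 7.67 ± 0.433, 6.68 ± 0.401 and 4.02 ± 0.576 TPM.

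**Figure D4:**
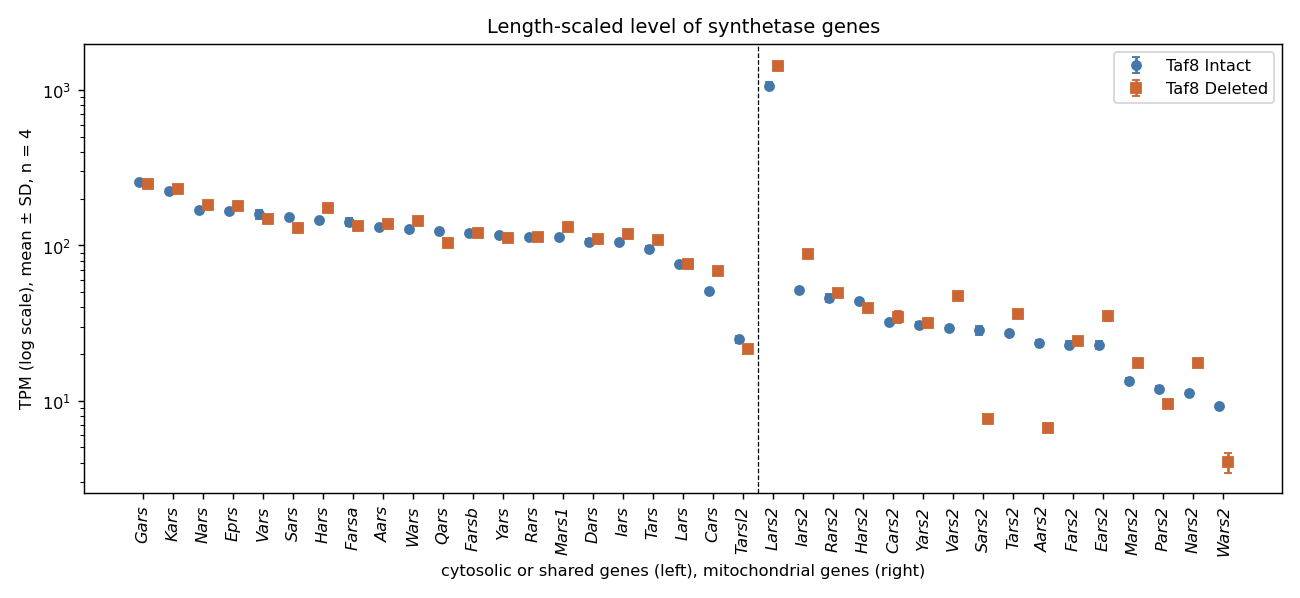
Level per length in TPM (log axis, mean ± SD over 4 libraries) of the cytosolic (left) and mitochondrial (right) genes, ordered by level in Intact cortex. Sars2, Aars2 and Wars2 drop to 4.02 to 7.67 TPM in Deleted cortex, and Lars2 stands at 1071 and 1434 TPM, above all others.

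By what the enzymes belong to, no group of cytosolic synthetase genes moved one way. Of 8 synthetases of the multisynthetase complex, a cytosolic assembly, Mars1 and Iars rose, Qars fell and 5 did not pass (median log2 fold change 0.02). Its scaffold genes Aimp1 and Aimp2 fell, by 0.54 ± 0.04 and 0.20 ± 0.04 (log2 ± SE), and Eef1e1 was at -0.10 ± 0.05. Aimp1 was at 43.1, 42.8, 41.3 and 43.4 CPM in the Intact and 28.5, 29.2, 28.4 and 31.6 CPM in the Deleted libraries. The class I synthetases, which share a catalytic fold, come from both compartments: of 10 cytosolic ones 4 rose and 3 fell, and of 9 mitochondrial ones 5 rose and 1 fell. Of all genes tested 30.6% rose and 32.9% fell, and the difference between the compartments was not tested.

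ATF4 is the transcription factor of the amino acid and endoplasmic reticulum stress responses, and many cytosolic synthetase genes are known targets. Of 13 such genes Cars, Mars1, Tars, Wars and Iars rose and Sars, Vars and Yars fell (median 0.07). Of the 8 other cytosolic genes Hars rose and Qars, Tarsl2 and Farsa fell (median -0.03). Of 18 other genes of the ATF4 pathway 5 rose and 6 fell (median -0.08). The amino acid transporter subunit genes Slc7a5 and Slc3a2 rose by 0.63 ± 0.07 and 0.30 ± 0.05 (log2 ± SE), as did the serine and glycine enzyme gene Shmt2 by 0.24 ± 0.05. Vldlr, Ddit4 and Chac1 fell by 0.54 ± 0.06, 0.30 ± 0.07 and 0.58 ± 0.16. Atf4 mRNA itself was at 0.08 ± 0.04 (adjusted p = 0.0868). The C/EBP-ATF response element bound by ATF4 was searched as TGATGNAA on both strands of the promoter windows. It was in 5 of 14 cytosolic and 0 of 14 mitochondrial windows, and in 4.06% of all promoters. 1 match in each of these 5 windows is shown in capitals in 26-base stretches of GRCm38.p6 on the gene's strand.
Yars, chr4:129189897-129189922 (+): gagctcagcTGATGCAAcccgacggg
Gars, chr6:55037962-55037987 (+): gctgcgctaTTTCATCAtgcaccggg
Aars, chr8:111033842-111033867 (+): cgggtcactTTTCATCAgagcgctct
Iars, chr13:49682128-49682153 (+): ctgtcagtaTTGCATCAcctccagac
Tars, chr15:11399657-11399682 (-): ggagtcccgTTGCATCAgctggttag
The matches shown begin at positions -30 to 9 from the annotated start, and not every match in these windows is shown. For Aars and Yars the start used lies inside the RefSeq gene span, which begins at 111027778 and 129189734. Of these 5 genes Iars and Tars rose, Yars fell, and Aars and Gars did not pass the test.

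Genes that act beside the mitochondrial synthetases also moved both ways. Of the subunits of the amidotransferase that makes mitochondrial glutaminyl-tRNA, Gatb and Gatc rose by 0.34 ± 0.07 and 0.25 ± 0.04 (log2 ± SE) and Qrsl1 fell by 0.19 ± 0.06. Mtfmt, which formylates the initiator methionyl-tRNA, rose by 0.43 ± 0.06, from 15.4, 15.2, 17.1 and 14.5 CPM in the Intact to 21.2, 20.6, 21.3 and 20.6 CPM in the Deleted libraries. Of 10 mitochondrial translation factors Mtrf1l, Guf1 and Gfm1 rose by 0.50 ± 0.08, 0.33 ± 0.05 and 0.16 ± 0.04, while Mrrf and Mtif3 fell by 0.93 ± 0.04 and 0.29 ± 0.05. Mrrf, the ribosome recycling factor, was at 26.1, 26.4, 26.1 and 26.6 CPM and at 13.9, 13.6, 13.96 and 13.9 CPM, with hardly any spread within a group. In the cytosol all 6 elongation factor genes fell, where 32.9% of all genes tested did (median -0.34, beside a median near 0 for all genes), among them Eef2 and Eef1g by 0.64 ± 0.03 and 0.63 ± 0.04 and Eef1b2 by 0.23 ± 0.03. Eef2, the translocase of the ribosome, went from 2766 ± 77.0 to 1778 ± 68.6 CPM (SD, n = 4 each). Of 4 genes for editing of mischarged transfer RNA, Dtd2, Prorsd1 and Dtd1 rose by 0.62 ± 0.07, 0.39 ± 0.10 and 0.18 ± 0.07 (log2 ± SE), and Aarsd1 was at -0.04 ± 0.03. Of all genes tested 30.6% rose, and the groups overlapped in Dtd1.

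Gene counts from unstranded reads limit some of these values. In RefSeq 18 of the 38 members overlap another annotated gene, among them Aars, Cars, Farsa, Farsb, Hars, Iars, Lars, Mars1, Sars, Tarsl2, Wars, Fars2, Hars2, Iars2, Lars2, Rars2 and Wars2. Mars1 overlaps Ddit3, a stress response transcription factor gene. The longest Aars transcript shares 1326 bases with Exosc6 on the same strand, and 1656 bases of Iars match the processed pseudogene Gm4849 at 96.0% identity. How reads that fit several genes were counted is not known here, so values of these genes carry that uncertainty. Sars2, Aars2 and Vars2 overlap no other gene in RefSeq.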

How the data were processed

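RNA of 8 embryonic cortices, 4 in each group, was measured by unstranded sequencing of polyadenylated RNA, per the labels. The authors deposited whole-number counts per gene and a gene length in bases, per the file headers; the 8 separate lists were identical to the columns of the matrix. The submitters' processing notes name bcl2fastq 1.8.4, Subread 1.5.0, featureCounts and build mm10; the annotation and any rule for multi-mapping reads were not found in the labels used here. Symbols came from RefSeq (GRCm38.p6) by gene identifier, matched for 25275 of 27179. The 1904 others stayed in totals and tests. They held 0.49% to 0.53% of the counts of an Intact library and 1.128% to 1.639% of those of a Deleted one.

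All genes were fitted in edgeR 4.0.16 (R 4.3.3): filterByExpr left 16074 genes, TMM factors were 0.9714 to 1.028, and groups were compared with the quasi-likelihood test (robust, no covariates), with Benjamini-Hochberg adjustment over all genes and a threshold of 0.05. The code was tested on simulated data. CPM uses TMM-scaled sizes; TPM uses the deposited lengths. The standard error (SE) is the absolute log2 fold change divided by the square root of F. Pair ratios used counts plus 0.5. Longest GENCODE M21 transcripts were searched against those of other genes with blastn 2.17.0 (at least 70 bases, 95% identity). Libraries of a group differed beyond sampling noise (chi-square per gene 4.22 to 14.6, genes with 20 counts or more). The p-values measure the spread between these embryos, of which some Intact ones share the number before the point. Some items counted in the totals are not reported here by name, in text or figures. The members and lists were chosen with earlier results of these data known. Values per library are given for the 6 cytosolic and 6 mitochondrial genes with the largest called change, the 3 pairs that differ most and Kars, Gars and Qars. Of each pathway list up to 3 genes in each direction, by smallest p, are given by fold change. Values per library of Lars2, Aimp1, Mtfmt and Mrrf, and the ratio of Vars2 to Vars, are also shown, chosen after they were seen. Alternatives were other size factors, filters, DESeq2 1.42.0, limma 3.58.1 (voom), a replicate block and leaving out each library.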

Additional observations from a re-analysis of the deposited data

Results flagged for a closer look

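In 3 of 76 groups of 4 libraries (38 genes in 2 groups) 1 library stood apart from the other 3 by Dixon's test at the 95% level, which chance gives in about 1 of 20 groups. Intact replicate 2 had the highest Lars2 level of its group, 1599.81 CPM, where the others lay between 1428 and 1444 CPM. Deleted replicate 4 had the lowest Sars2 level, 4.638 CPM beside 5.21 to 5.24 CPM. Deleted replicate 3 had the lowest Tars2 level, 52.8 CPM beside 56.2 to 56.7 CPM. Each of these libraries stayed on its own group's side, and leaving it out kept the call of the gene.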

How the results depend on the processing

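Each member's fold change was recomputed under 18 alternatives, of which leaving out Deleted replicates 2 and 3 together (those with the highest meningeal markers) and leaving out identifiers without a symbol were chosen after seeing the data. Of 38 members, 29 kept their call under all of them and 9 changed their call under at least 1; no called change turned its sign. Mitochondrial counts were 8 higher and 5 lower, except 9 higher without Deleted replicate 2, where Cars2 passed. Cytosolic genes called lower were 3 with library totals only and 3 with upper-quartile factors, in place of 6; leaving out 1 library gave 3 to 5 lower and 6 to 8 higher. Farsa lost its call in 13 of 18 alternatives, Yars in 11 and Vars in 6, while Eprs gained one in 9 and Nars in 7. Without Deleted replicates 2 and 3 the counts were 6 and 6 cytosolic (with Lars lower in place of Farsa) and 8 and 5 mitochondrial. The replicate block gave 6 and 6, and 8 and 5, with 9665 of all genes called in place of 10209; the numbers did not pair the embryos (correlations of deviations -0.229, 0.00519, -0.000469 and -0.455). The number of separate pairs was 8 higher and 6 lower with a pseudocount of 5, and 8 to 9 higher when a library was left out. The level ratio of 21.7% is the same on the RPKM scale by construction. Both scales divide counts by gene length and a factor per library, which cancels in the ratio, so this was no check. With library totals only, the median of all genes moved by 0.062 on the log2 scale.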

Other observations

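A total of 9 members start within 500 bases of another protein-coding gene on the opposite strand in the GENCODE annotation. Sars2 and Mrps12, which encodes a mitochondrial ribosomal protein, start 172 bases apart. Sars2 fell by 1.92 on the log2 scale, and Mrps12 was at 0.16 ± 0.07 (SE, adjusted p = 0.0716). Hars and Hars2 overlap head to head, with 195 bases of transcript in common on opposite strands, so that reads there cannot be told apart. Hars rose by 0.23 and Hars2 fell by 0.18 on the log2 scale. Rars2 (0.08 ± 0.06) starts 13 bases from Orc3, a gene of the replication origin complex, which fell by 0.32 ± 0.05. Kars (0.002 ± 0.034) starts 75 bases from Terf2ip, a telomere protein gene, which rose by 0.14 ± 0.03. Fars2 (0.05 ± 0.06) overlaps the start of Lyrm4, an iron-sulfur cluster assembly gene, which rose by 0.38 ± 0.08. Ears2 and Ubfd1, whose starts overlap, rose by 0.58 and 0.16. Yars fell by 0.10 beside S100pbp (0.07 ± 0.04). The difference between the genes of a pair was not tested.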
